A study of Capra hircus with 29 samples.

Results

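The nuclear pore and its carriers were described in goat oocytes through 49 gene rows of a table of 21343 rows. Every row was taken whose symbol was NUP with a number, KPNA with a number, KPNB1, IPO with a number, XPO with a number or T, or TNPO with a number. This gave 23 rows of nucleoporins, 20 of importins and 6 of exportins, under 46 symbols. The symbol KPNA2 stood on 3 rows and NUP88 on 2, and they were kept apart as KPNA2 (a), (b) and (c) and NUP88 (a) and (b) in order of their mean. The symbol NUP62CL also met the rule, although it is not a defined part of the pore.

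Nucleoporins are the proteins that build the nuclear pore, a ring-shaped channel through the nuclear envelope, and many of them carry repeats of phenylalanine and glycine (FG) that fill the channel. Importin alpha proteins (KPNA genes) bind a nuclear localization signal on a cargo and hand it to importin beta (KPNB1), while the other importins and transportins bind cargo directly and exportins carry protein and RNA out of the nucleus. In a growing oocyte the large nucleus, the germinal vesicle, exchanges proteins and RNA with the cytoplasm through these pores until it breaks down at the resumption of meiosis. KPNA7 is known as an importin alpha of oocytes and early embryos in mammals.

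The oocytes came from Ji'ning grey goats of a high fertility (H) and a low fertility (L) population, sorted by litter size, and from large (L), medium (M) or small (S) follicles, so that HLO, for example, stands for oocytes (O) of large follicles of the high fertility population. HLO, LLO, HMO, LMO and LSO held 5 samples each and HSO held 4, 29 in all, and the labels name no agent given to the goats. Per the study's methods, the oocytes were freed of granulosa cells by pipetting and pooled by follicle class, then divided into samples of a few oocytes. The samples of a group were therefore not separate animals, and the p-values below measure only the spread between them, which may be technical.

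All values are FPKM (fragments per kilobase of exon, relative to all mapped fragments), which are scaled to gene length. Levels of different genes are set side by side below on this scale only. Length scaling alone does not make genes comparable, and the part of library making in such differences was not tested. FPKM do not hold the read depth, and the precision of each value is unknown beyond the spread between samples. The sum of FPKM per sample was 222697 to 490048, lowest in LMO sample 2, and 6646 to 8689 genes lay above 0.5 FPKM, the limit of the study. The oocyte label was checked against markers. Of 11 rows of oocyte markers, 7 were above 0.5 FPKM in all 29 samples, among them GDF9, the secreted growth factor of oocytes, at a mean of 312 FPKM. FIGLA was above it in 28 samples, and NOBOX in only 8, with a mean of 0.379 FPKM. Of the 2 DAZL rows, 1 was above it in 21 samples and 1 was listed at 0 throughout. Summed, the oocyte markers were at 426 to 9077 FPKM, lowest in LLO sample 2, which also had the fewest genes above the limit. The summed granulosa markers were at 5.94 to 41.4 FPKM, mostly STAR with a mean of 18.8 FPKM. Of their 12 rows, 4 were above 0.5 FPKM in at least 4 samples and 6 in none. HAS2 was above it in all 29 samples, with a mean of 1.45 FPKM. INHBA was above it in 10 samples and reached 5.21 FPKM in LMO sample 5. AMH was listed at 0 in every sample, and FSHR and LHCGR, the gonadotropin receptors, reached at most 0.283 and 0.0460 FPKM. Leukocyte markers summed to at most 0.672 FPKM and endothelial markers to at most 1.61 FPKM, with CD14 and CDH5 listed at 0. Theca and stroma markers summed to 2.94 to 18.9 FPKM, mostly DCN. Fewer cells of a type and less RNA per cell cannot be told apart in these samples.

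The genes of the pore and its carriers spanned a wide range of levels. Of the 49 rows, 18 were above 0.5 FPKM in all 29 samples, 34 were above it in at least 4 samples, 9 in 1 to 3 samples, and 6 in none. The share above the limit in at least 4 samples was 69.4% of these genes and 45.4% of all genes in the table. The top end was small: 11 rows had a mean above 10 FPKM and 6 a mean above 50 FPKM, while 24 had a mean under 1 FPKM. A mean above 50 FPKM was reached by 12.2% of these genes and by 4.44% of all genes. These 6 were KPNA7, NUP35, NUP37, NUP54, KPNA2 (a) and NUP88 (a). Each of them was above 0.5 FPKM in every sample.

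**Figure D1:**
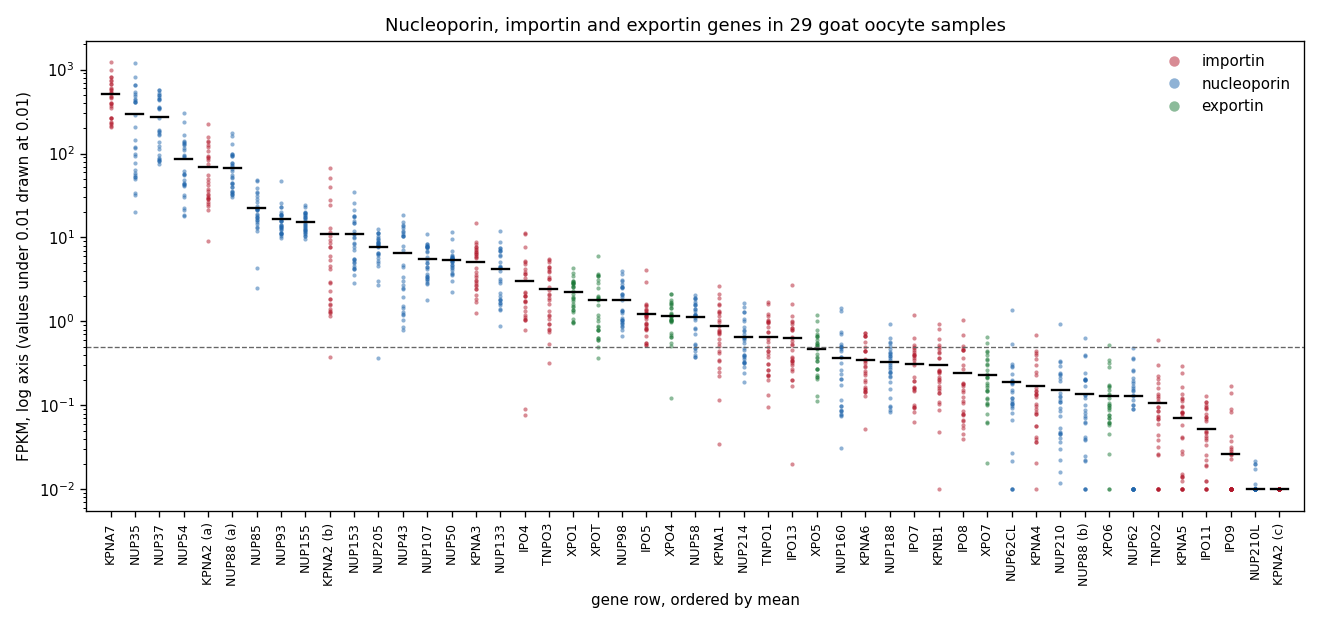
FPKM of the 49 gene rows (horizontal axis, ordered by mean) on a log axis in the 29 oocyte samples, with a point per sample, a black bar at the mean and a dashed line at 0.5 FPKM. Means fall from 509 FPKM for KPNA7 to 0 for KPNA2 (c), with 11 rows above 10 FPKM and 24 below 1 FPKM.

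The Y complex, the scaffold of the outer rings of the pore, was described through the 6 of its genes that met the symbol rule. All 6 passed 0.5 FPKM in at least 4 samples. Subunits under other symbols were left out here, such as SEC13 and SEH1L, with means of 14.8 and 0.939 FPKM. The means of the 6 genes were very unequal. The protein subunits occur in equal numbers in the assembled complex, but FPKM measure mRNA, which need not follow protein numbers. NUP37, a peripheral subunit, had 276 ± 174, NUP85 had 22.2 ± 10.9, NUP43 had 6.53 ± 5.39, NUP107 had 5.56 ± 2.33, NUP133 had 4.24 ± 2.73 and NUP160, a core subunit, had 0.368 ± 0.346 FPKM (SD, n = 29). NUP37 was higher than NUP107 in 29 of 29 samples, by 5.43 ± 0.68 on the log2 scale.

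NUP37 ranged over samples from 76.0 FPKM in LMO sample 3 to 579 FPKM in HMO sample 1. Its values were 87.2, 95.3, 122, 347 and 453 in HLO, 82.1, 165, 438, 496 and 569 in LLO, 138, 173, 193, 519 and 579 in HMO, 76.02, 89.4, 265, 344 and 362 in LMO, 82.7, 181, 441 and 498 in HSO and 82.3, 114, 187, 338 and 473 in LSO. Each group held low and high samples, and all 6 groups overlapped.

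The inner ring, which lines the channel and joins the outer rings, was measured through 5 genes. NUP35, a small subunit that binds membrane, led with 294 ± 288 FPKM (SD, n = 29), followed by NUP93 with 16.5 ± 7.299, NUP155 with 15.4 ± 3.94, NUP205 with 7.62 ± 2.81 and NUP188 with 0.333 ± 0.193 FPKM. NUP205 and NUP188 are large scaffold paralogs with like roles. NUP35 exceeded NUP93 in 29 of 29 samples, by 3.45 ± 1.63 on the log2 scale, and the smallest gap was 0.11 in LMO sample 2.

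NUP35 also had the widest spread within groups, on the log2(FPKM + 1) scale, of the 34 genes above the limit in at least 4 samples. It ran from 20.1 FPKM in LMO sample 2 to 1183 FPKM in LLO sample 5, a 59.0-fold range. Its FPKM were 33.9, 52.2, 99.6, 439 and 814 in HLO, 63.3, 93.97, 287, 647 and 1183 in LLO, 76.5, 115, 119, 515 and 541 in HMO, 20.1, 55.5, 209.6, 415 and 452 in LMO, 52.5, 147, 414 and 652 in HSO and 32.2, 49.8, 58.04, 417 and 479 in LSO. Low and high samples stood in each of the groups. NUP155, in contrast, ran only from 9.64 to 24.4 FPKM, with a coefficient of variation of 25.6%, the lowest of the rows with any value.

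The FG nucleoporins of the central channel also had very unequal levels. NUP54 had 86.97 ± 67.6 FPKM (SD, n = 29), while its partners in the channel complex were low, with NUP58 at 1.12 ± 0.526 and NUP62 at 0.128 ± 0.128 FPKM. NUP54 was above NUP58 in 29 of 29 samples, by 6.08 ± 0.92 on the log2 scale. NUP62, the best known FG nucleoporin, never passed 0.5 FPKM and was listed at 0 in 10 of 29 samples. Its FPKM were 0, 0.0916, 0.149, 0.154 and 0.187 in HLO, 0, 0.101, 0.162, 0.172 and 0.193 in LLO, 0, 0, 0, 0.102 and 0.133 in HMO, 0, 0, 0.0915, 0.258 and 0.261 in LMO, 0, 0.114, 0.211 and 0.369 in HSO and 0, 0, 0.128, 0.357 and 0.481 in LSO. A listed 0 in FPKM can be a failed estimate, and it is not read as absence.

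NUP98, an FG nucleoporin that docks mRNA export factors, passed 0.5 FPKM in every sample, with 1.81 ± 0.925 FPKM (SD, n = 29). Its values were 0.855, 0.880, 0.993, 2.09 and 2.57 in HLO, 1.31, 1.38, 2.49, 3.08 and 3.66 in LLO, 0.674, 1.04, 1.04, 1.104 and 2.58 in HMO, 0.787, 1.25, 2.13, 2.56 and 3.95 in LMO, 0.940, 1.04, 1.96 and 2.13 in HSO and 0.970, 1.32, 1.78, 2.78 and 3.01 in LSO. All groups overlapped, and the lowest value stood in HMO sample 4 and the highest in LMO sample 4.

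On the cytoplasmic face NUP88 (a) had 68.2 ± 37.7 FPKM (SD, n = 29), whereas NUP214, which is bound to NUP88 in the pore, had 0.654 ± 0.397 FPKM. The second row of the symbol, NUP88 (b), had a mean of 0.137 FPKM. In the nuclear basket NUP153 had 10.9 ± 7.602 and NUP50, a cofactor that helps to release cargo from importin alpha, 5.39 ± 1.79 FPKM. The membrane nucleoporin NUP210 passed 0.5 FPKM in 1 sample, LMO sample 2, and its relative NUP210L in none.

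Together NUP37 and NUP35 made up 62.4% ± 13.1 of the summed nucleoporin FPKM (SD, n = 29), and with NUP54 and NUP88 the share was 82.8% ± 9.87, from 60.7% in LMO sample 2 to 94.6% in LLO sample 5. Nucleoporin names give the approximate mass of the protein. Over 20 nucleoporin symbols with a number of their own, the mean FPKM fell with that number (Spearman rho = -0.53, across genes, which are not independent replicates). The 11 with a number under 100 had a median of 16.5 FPKM and a range of 0.128 to 294 FPKM, and the 9 with a higher number a median of 4.24 FPKM and a range of 0.152 to 15.4 FPKM. The part of gene length or library making in these levels was not tested.

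Among the carriers KPNA7 was by far the most abundant, with 509 ± 254 FPKM (SD, n = 29). This level was above that of 99.2% of the genes in the table. KPNA7 made up 85.8% ± 5.24 of the summed FPKM of the importin alpha genes, from 77.7% in LSO sample 4 to 97.7% in LLO sample 2, and the KPNA2 rows together made up most of the rest with 13.0% ± 5.11. KPNA3 followed with 5.06 ± 2.95 and KPNA1 with 0.886 ± 0.634 FPKM, while KPNA6, KPNA4 and KPNA5 had means of 0.347, 0.169 and 0.0709 FPKM. KPNA7 was higher than KPNA2 (a) in all 29 samples, by 3.10 ± 0.91 on the log2 scale.

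KPNA7 in single samples was at 265, 266, 372, 672 and 809 FPKM in HLO, 232, 521, 739, 817 and 1233 in LLO, 205, 226, 458, 466 and 547 in HMO, 212, 401, 491, 579 and 677 in LMO, 238, 392, 397 and 992 in HSO and 264, 349, 579, 610.0 and 754 in LSO. The lowest of the 29 samples was HMO sample 4. Group means ran from 380.5 ± 155 FPKM in HMO to 708 ± 371 FPKM in LLO (SD, n = 5 each), and all 6 groups overlapped.

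KPNA2 (a) was at 23.9, 28.5, 29.7, 106 and 157 FPKM in HLO, 9.06, 25.1, 54.9, 89.04 and 119 in LLO, 21.4, 26.5, 38.1, 84.8 and 92.1 in HMO, 31.7, 41.8, 49.9, 93.4 and 143 in LMO, 30.5, 45.9, 75.6 and 224 in HSO and 29.05, 33.3, 35.6, 126 and 138 in LSO. The lowest of the 29 samples was LLO sample 2, with 9.06 FPKM, although its KPNA7 was at 739 FPKM. That sample also held the lowest value of 7 of the 34 genes above the limit in at least 4 samples, NUP205 and XPO4 among them.

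**Figure D2:**
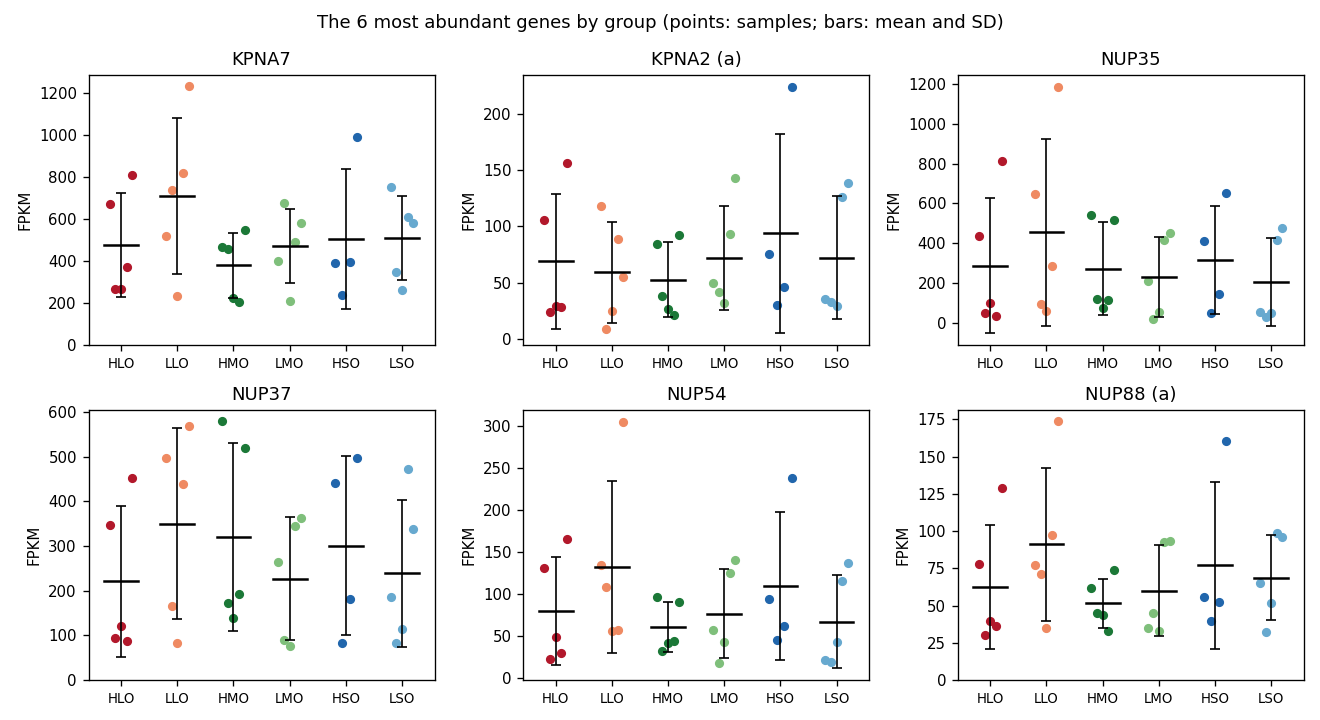
FPKM of the 6 most abundant genes (vertical axes) in each group, with a point per sample and the mean with its SD, for 5 samples a group and 4 in HSO. In each panel the 6 groups overlap, and the spread within a group is wide, as for NUP35, which runs from 63.3 to 1183 FPKM within LLO.

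KPNB1, the importin beta that partners all importin alpha proteins, was low. It had 0.299 ± 0.220 FPKM (SD, n = 29) and passed 0.5 FPKM in 4 samples. Its FPKM were 0.0488, 0.0871, 0.202, 0.245 and 0.423 in HLO, 0, 0.141, 0.262, 0.613 and 0.823 in LLO, 0.103, 0.111, 0.188, 0.218 and 0.258 in HMO, 0.139, 0.161, 0.171, 0.474 and 0.930 in LMO, 0.153, 0.370, 0.371 and 0.434 in HSO and 0.208, 0.252, 0.258, 0.498 and 0.526 in LSO. The only listed 0 was in LLO sample 2.

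The other 10 genes listed with KPNB1 as importin beta family, all under IPO or TNPO symbols, were also low. IPO4, an importin of histones and ribosomal proteins, led with 3.06 ± 2.82 FPKM (SD, n = 29). TNPO3, the carrier of splicing factors with serine and arginine repeats, had 2.45 ± 1.603 and IPO5, a carrier of ribosomal proteins and histones, 1.21 ± 0.728 FPKM. TNPO1, IPO13, IPO7, IPO8 and TNPO2 had means of 0.645, 0.639, 0.313, 0.242 and 0.105 FPKM, and IPO9 and IPO11 never passed 0.5 FPKM. The summed FPKM of the 11 listed genes, KPNB1 included, was 3.27 to 14.5 per sample, beside 238 to 1307 for the importin alpha genes.

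Exportin levels were low. XPO1, the exportin of proteins with leucine-rich export signals, had 2.22 ± 0.896 FPKM (SD, n = 29), XPOT, the tRNA exportin, had 1.81 ± 1.33, XPO4 1.16 ± 0.472 and XPO5, the exportin of microRNA precursors, 0.471 ± 0.253 FPKM. XPO7 and XPO6 had means of 0.231 and 0.129 FPKM. XPO1 was above 0.5 FPKM in every sample.

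In single samples XPO1 was at 0.997, 1.06, 1.59, 2.54 and 3.803 FPKM in HLO, 0.985, 1.85, 2.91, 2.94 and 3.49 in LLO, 1.28, 1.37, 1.97, 2.14 and 2.89 in HMO, 1.36, 1.78, 1.92, 3.02 and 4.28 in LMO, 1.498, 2.33, 2.68 and 2.86 in HSO and 0.955, 1.53, 2.55, 2.82 and 3.03 in LSO. The 29 values lay within a 4.48-fold range, and all 6 groups overlapped.

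The rows of KPNA2 followed 2 courses. Rows of 1 symbol may be copies that share reads, and the study kept only reads with a unique match, so the level of KPNA2 (b), ENSCHIG00000011593, beside KPNA2 (a), ENSCHIG00000026666, is uncertain. The third, ENSCHIG00000011572, was listed at 0 in all samples. KPNA2 (b) had 4.12% to 5.80% of the FPKM of KPNA2 (a) in 21 samples, a narrow range while KPNA2 (a) itself ran from 9.06 to 224 FPKM. In the other 8 samples KPNA2 (b) stood at 28.5% to 143% of KPNA2 (a), and no sample lay between. This split was noticed in the values and has no test.

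These 8 samples were LLO sample 4, HMO samples 1, 3, 4 and 5, and LSO samples 1, 3 and 4. The FPKM of KPNA2 (b) were 67.8 in LLO sample 4, 24.2, 10.5, 9.27 and 27.9 in the HMO samples and 51.0, 11.5 and 40.2 in the LSO samples, beside 0.379 to 13.0 in the 21 others. KPNA2 (a) did not separate them, with 21.4 to 126 FPKM in the 8 samples. All samples of HLO, LMO and HSO were among the 21.

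HSD17B2, a steroid dehydrogenase, was above 5 FPKM in the same 8 samples, with 7.44 to 41.7 FPKM, and at most 0.143 FPKM in the 21 others. Why these samples share both values was not tested. HSD17B2, which the paper names among its highly changed genes, was the only gene outside the set compared in this way. It was not counted how many further genes of the table split the same 8 samples. No link particular to HSD17B2 and KPNA2 (b) is therefore read from these values.

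**Figure D3:**
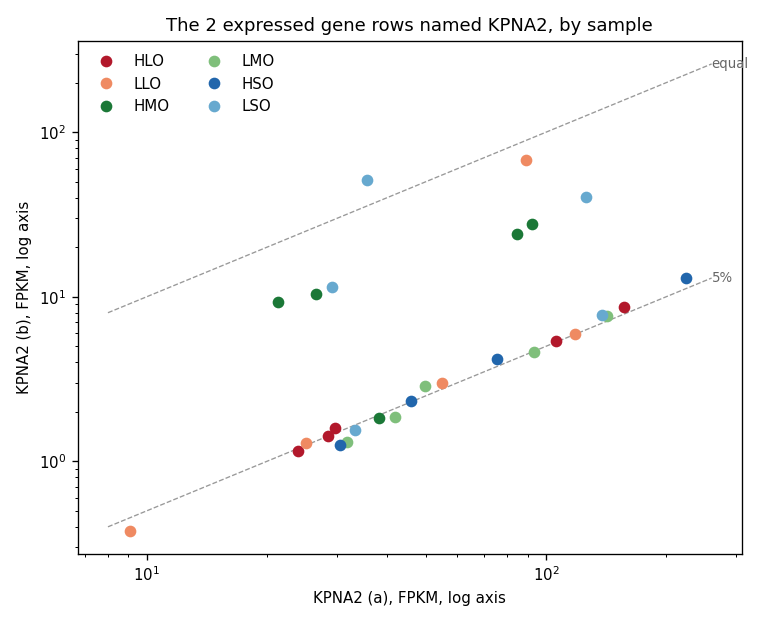
FPKM of KPNA2 (b) against KPNA2 (a), both on log axes, with a point per sample coloured by group and dashed lines where the rows are equal and where (b) is 5% of (a). The 21 samples along the lower line lie at 4.12% to 5.80%, and 8 samples of LLO, HMO and LSO lie at 28.5% to 143%.

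Samples of 1 group differed widely for most of the abundant genes. The summed FPKM of the 49 rows was 548 to 3688 per sample, or 0.128% to 0.955% of all FPKM in it. The standard deviation within groups on the log2(FPKM + 1) scale had a median of 0.52 over the 34 genes above the limit in at least 4 samples and 0.55 over all 9692 such genes. Above a mean of 10 FPKM the medians were 0.88 over 11 of these genes and 0.87 over 2540 of the table. NUP35 had 1.76, with 98.8% of all such genes spread less, and KPNA2 (b) had 1.46 with 96.6% spread less. NUP155 had 0.36 and NUP50 0.32, with 21.3% and 14.9% of genes spread less.

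Some samples held the lowest values of some genes and the highest of others. LMO sample 2 held the lowest value of 6 of the 34 genes, NUP35, NUP54 and NUP43 among them. It also held the highest NUP85, at 48.4 FPKM, and the highest NUP50, at 11.7 FPKM. That sample was not low throughout, with KPNA7 at 677 FPKM and IPO4 at 10.9 FPKM. LLO sample 5 held the highest value of 7 genes, KPNA7 and NUP35 among them. It held the lowest NUP85, at 2.47 FPKM, NUP50, at 2.26 FPKM, and IPO4, at 0.0762 FPKM.

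The high and low fertility populations were compared within each follicle class. Tests used limma on log2(FPKM + 1) over all genes above 0.5 FPKM in at least 4 samples of the comparison, with Benjamini-Hochberg adjustment over all of them. A difference is given as high minus low. Of the 49 rows, 30 could be tested in each class, and the other 19 were too low.

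In large follicles no gene of the set changed between HLO and LLO at an adjusted p under 0.05 (0 of 30, where 0% of all 8328 genes tested did). At an unadjusted p under 0.05, 1 of 30 was higher in HLO, where 2.98% of all genes were, and 0 of 30 were lower, where 1.16% of all genes were. No member had groups that did not overlap, where 0.276% of all genes lay wholly higher in HLO and 0.156% wholly lower. The median log2 difference was -0.22 over the 30 genes and -0.09 over all genes tested, with 9 of the 30 above 0 and 21 below. Of all genes tested 57.6% were below 0. The count at an unadjusted p was 5 without LLO sample 3, 3 without HLO sample 5, 2 without LLO sample 4 and 0 without LLO sample 5, where the share of all genes was 10.6%, 5.85%, 5.88% and 1.88%, beside 4.14% with every sample. The summed granulosa markers, mostly STAR, were at 18.8 to 32.4 FPKM in HLO and 7.73 to 18.5 FPKM in LLO, and their part in these values was not tested.

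The gene past an unadjusted p of 0.05 was IPO4. Its FPKM were 1.05, 1.75, 3.89, 4.18 and 11.3 in HLO and 0.0762, 0.0914, 0.791, 1.72 and 2.21 in LLO. LLO samples 2 and 5 were far below all others, LLO sample 2 being the one with the lowest summed oocyte markers, and of the 3 other LLO samples those at 1.72 and 2.21 FPKM lay within the range of HLO. The log2 difference was 1.31 (SE 0.49, 95% interval 0.26 to 2.37, limma adjusted p = 0.828, and 0.0183 before adjustment), and without LLO sample 5 it was 1.13 with an unadjusted p of 0.0510 by limma. With array weights, which give less weight to samples that vary more, it was 1.16 with an unadjusted limma p of 0.117. For KPNA7 the difference was -0.53 with an interval of -1.73 to 0.67, which leaves room for a change in either direction.

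In medium follicles HMO and LMO gave 0 of 30 genes at an adjusted p under 0.05, where 0.0715% of all 8390 genes passed. Unadjusted, 1 of 30 was higher in HMO, beside 5.09% of all genes, and 1 of 30 lower, beside 3.58%. Again no member separated the groups, beside 0.846% of all genes wholly higher and 0.858% wholly lower. The median log2 difference was -0.17 over the 30 genes and -0.07 over all, with 7 above 0 and 23 below, where 56.5% of all genes were below 0. The summed granulosa markers, again mostly STAR, were at 10.3 to 17.7 FPKM in HMO and 21.8 to 41.4 FPKM in LMO, and their part here was not tested either.

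XPO5 was the lower one. Its FPKM were 0.112, 0.206, 0.273, 0.378 and 0.512 in HMO and 0.412, 0.528, 0.663, 1.0 and 1.200 in LMO. One HMO value, in sample 3, lay above the lowest of LMO, and the 4 others lay below all of LMO. Only that HMO value was above 0.5 FPKM, beside all of LMO but its lowest. XPO5 thus entered this test through LMO, the group where it was higher, and its p is not read as support for a difference. The log2 difference was -0.43 (SE 0.16, 95% interval -0.78 to -0.08, limma adjusted p = 0.467, and 0.0198 before adjustment). Leaving out HMO sample 4 or LMO sample 4 brought the unadjusted limma p to 0.0524 and 0.0530.

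KPNA2 (b) was the higher one, with a log2 difference of 1.52 (SE 0.59, 95% interval 0.24 to 2.81, limma adjusted p = 0.497, and 0.0239 before adjustment). Its FPKM were 1.84, 9.27, 10.5, 24.2 and 27.9 in HMO and 1.31, 1.85, 2.86, 4.61 and 7.66 in LMO. HMO sample 2 lay within LMO, and the other 4 HMO samples lay above every LMO sample and belong to the 8 described above. KPNA2 (a) had a difference of -0.47 (95% interval -1.61 to 0.68) in the same comparison. With the 3 KPNA2 rows summed, an alternative chosen after seeing the data, the difference was -0.18 and the limma adjusted p was 0.938. The p of KPNA2 (b) rose above 0.05 without HMO sample 1 or 5 or LMO sample 2 or 3, at 0.0617, 0.0650, 0.0542 and 0.0608, unadjusted, by limma. It was 0.0642 with array weights and 0.0865, the highest, in 1 fit over all samples.

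In small follicles HSO and LSO gave 0 of 30 genes at an adjusted p under 0.05, beside 0.0119% of all 8376 genes. Also at an unadjusted p there were 0 of 30 in either direction, beside 2.04% of all genes higher in HSO and 2.36% lower, and no member separated the groups, beside 0.752% and 1.30% of all genes. The median log2 difference was -0.01 over the 30 genes and over all genes. The smallest p was that of KPNA2 (b), which was at 1.25, 2.31, 4.199 and 12.97 FPKM in HSO and 1.55, 7.75, 11.5, 40.2 and 50.96 in LSO. The difference was -1.57 (SE 0.86, 95% interval -3.46 to 0.32, limma adjusted p = 0.880), opposite in sign to that in medium follicles. In large follicles it was -0.57, and 0.33 without LLO sample 4, with FPKM of 1.16, 1.42, 1.602, 5.35 and 8.68 in HLO and 0.379, 1.29, 2.99, 5.95 and 67.8 in LLO. For KPNA2 (b) in small follicles the unadjusted limma p was 0.0951 with every sample. With single samples left out it rose to as much as 0.223, without LSO sample 1. It fell to 0.0391 without HSO sample 5 and 0.0121 without LSO sample 2, with limma adjusted p-values of 0.996 and 0.738. In the fits without HSO sample 5 and without LSO sample 2, 2.8% and 6.66% of all genes had an unadjusted p under 0.05.

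**Figure D4:**
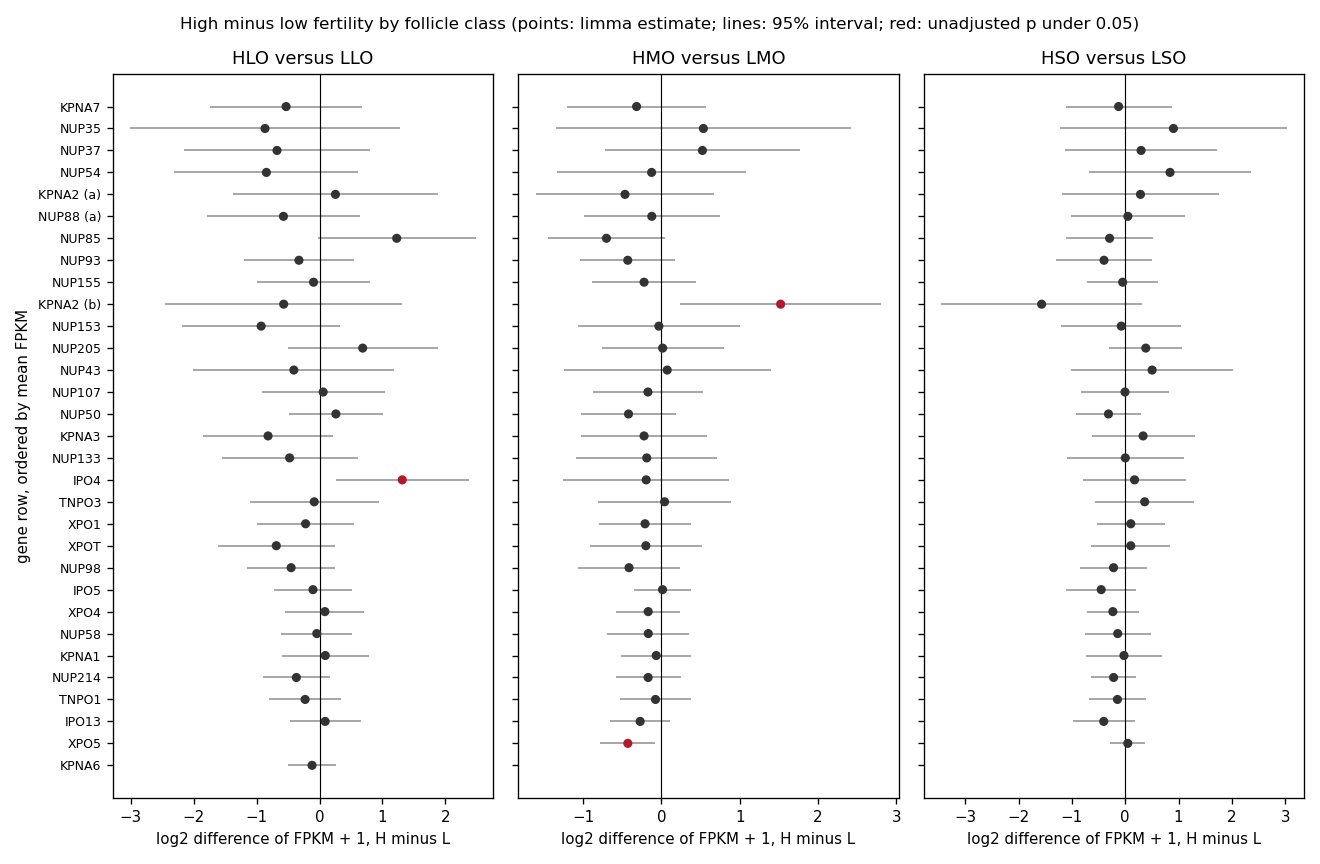
Log2 difference of FPKM + 1, high minus low fertility (horizontal axes), of each tested gene row (vertical axis, ordered by mean FPKM) in large, medium and small follicles, as limma estimates with 95% intervals. Red points mark an unadjusted p under 0.05, which are IPO4 in large and KPNA2 (b) and XPO5 in medium follicles, and every other interval includes 0.

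By structure, the tested members of the central channel (NUP54, NUP58, NUP98) were below 0 in 3 of 3 cases in both large and medium follicles, with medians of -0.45 and -0.17, and the 2 tested genes of the cytoplasmic face likewise, with -0.47 and -0.15. In small follicles these counts were 2 of 3 and 1 of 2. The exportins were below 0 in 2 of 3 cases in large and 4 of 4 in medium follicles, and above 0 in 3 of 4 in small follicles. Of all genes tested 57.6%, 56.5% and 50.8% were below 0 in large, medium and small follicles, and each list held 2 to 4 tested genes, so nothing particular to a list is read from its count. None of these lists held a gene past the adjusted threshold.

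Over all 29 samples, with follicle class in the model, 34 rows could be tested and 15 were too low. No gene of the set passed an adjusted p of 0.05, beside 0.0103% of all 9692 genes. Unadjusted, 3 of 34 were lower in the high fertility population, beside 6.59% of all genes, and 0 of 34 higher, beside 3.39%. The median log2 difference was -0.12 over the 34 genes and -0.04 over all genes, with 10 above 0 and 24 below, where 57.2% of all genes were below 0.

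Those 3 were NUP98, NUP214 and NUP93. NUP98 had a log2 difference of -0.37 (SE 0.17, 95% interval -0.71 to -0.02, limma adjusted p = 0.476), and its values by sample are given above. NUP214, the FG nucleoporin of the cytoplasmic filaments, had -0.25 (SE 0.12, limma adjusted p = 0.482). Its FPKM were 0.190, 0.333, 0.383, 0.650 and 0.762 in HLO, 0.332, 0.374, 0.860, 1.504 and 1.68 in LLO, 0.243, 0.320, 0.396, 0.485 and 1.02 in HMO, 0.287, 0.457, 0.604, 0.781 and 1.31 in LMO, 0.324, 0.403, 0.631 and 0.702 in HSO and 0.362, 0.548, 0.630, 1.08 and 1.31 in LSO. The populations overlapped in each class.

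NUP93, a scaffold of the inner ring, had -0.38 (SE 0.18, limma adjusted p = 0.482). Its FPKM were 10.5, 11.1, 12.96, 13.3 and 18.3 in HLO, 11.3, 12.5, 14.2, 23.2 and 25.99 in LLO, 9.88, 11.3, 11.3, 13.3 and 15.5 in HMO, 12.1, 15.5, 18.3, 18.6 and 20.2 in LMO, 11.1, 13.7, 15.7 and 23.1 in HSO and 14.04, 15.95, 17.6, 19.1 and 47.7 in LSO. LSO sample 1 was far above all others. For each of the 3 genes at least 1 sample left out brought the unadjusted p above 0.05, and none of the 3 was below it without HLO sample 2 or 3, LLO sample 5, HMO sample 3, LMO sample 4, or HSO sample 1 or 3. One of the 3 was below it without LLO sample 4, HMO sample 2 or 4, LMO sample 5, or LSO sample 1 or 4. In these fits 7.67% to 10% of all genes were below it, beside 9.99% with every sample.

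**Figure D5:**
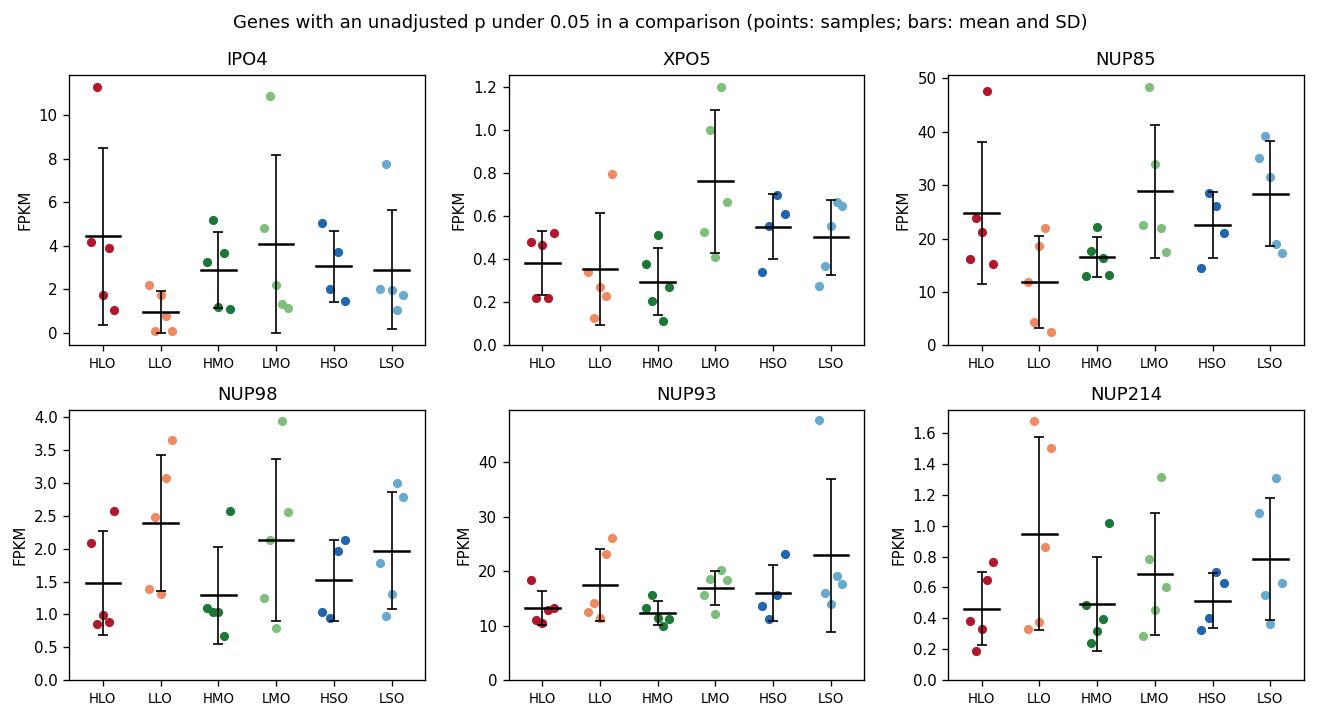
FPKM (vertical axes) of the genes on single rows with an unadjusted p under 0.05 in any comparison, by group, with a point per sample and the mean with its SD. The groups overlap in each panel, NUP85 is lowest in LLO, with a mean of 11.8 FPKM, and XPO5 is highest in LMO, with a mean of 0.761 FPKM.

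The follicle classes were compared over all samples with the population in the model. At an adjusted p, 0 of 34 genes differed over the 3 classes, beside 0% of all genes, and at an unadjusted p it was also 0 of 34, beside 1.66%, and 1 of 34 without HLO sample 4, beside 2.06%. Between pairs of classes 0 of 34 had an unadjusted p under 0.05, beside 2.40% of all genes for medium against large, 3.84% for small against large and 0.485% for small against medium follicles. The gene nearest to the limit was NUP85, higher by 0.73 in small than in large follicles (SE 0.36, 95% interval -0.01 to 1.47, limma adjusted p = 0.996). KPNA7 was at -0.18 in the same contrast (95% interval -0.87 to 0.50).

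Whether the difference between populations depended on follicle class was tested by the interaction. At an adjusted p, 0 of 34 genes passed, beside 0% of all genes, and at an unadjusted p 2 of 34 did, beside 7.89% of all genes. These were NUP85 (limma adjusted p = 0.384, and 0.0104 before adjustment) and XPO5 (limma adjusted p = 0.604, and 0.0410 before adjustment). Beside the values of XPO5 in medium follicles given above, its FPKM were 0.220, 0.220, 0.464, 0.481 and 0.519 in HLO, 0.129, 0.227, 0.272, 0.339 and 0.796 in LLO, 0.341, 0.554, 0.608 and 0.700 in HSO and 0.273, 0.369, 0.555, 0.648 and 0.667 in LSO, and the populations overlapped in each class.

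NUP85 is a subunit of the short arm of the Y complex. Its high minus low difference was 1.23 in large (SE 0.58), -0.70 in medium (SE 0.34) and -0.29 in small follicles (SE 0.37). The FPKM were 15.2, 16.3, 21.2, 23.9 and 47.7 in HLO and 2.47, 4.32, 11.8, 18.6 and 22.02 in LLO, 13.1, 13.2, 16.4, 17.8 and 22.1 in HMO and 17.5, 21.97, 22.5, 33.98 and 48.4 in LMO, and 14.4, 21.1, 26.2 and 28.5 in HSO and 17.2, 19.1, 31.5, 35.04 and 39.3 in LSO. LLO samples 2 and 5, at 4.32 and 2.47 FPKM, were below all other samples. The interaction p of NUP85 stayed under 0.05 with any 1 sample left out, at 0.00236 to 0.0319 unadjusted by limma, and that of XPO5 rose to as much as 0.110, without LMO sample 4.

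Other genes of nuclear transport were read from a list of pore proteins, the Ran cycle, further carriers, mRNA export and the lamina, 54 rows in all. None passed an adjusted p of 0.05 in any of the 3 classes or over all samples. At an unadjusted p under 0.05, 0 of 40 tested differed in large follicles, beside 2.98% of all genes higher and 1.16% lower. In medium follicles 1 of 38 was higher (THOC7) and 1 lower (TPR), beside 5.09% and 3.58% of all genes. In small follicles 1 of 39 was higher (LBR) and 0 lower, beside 2.04% and 2.36%. Over all samples 4 of 42 were lower in the high fertility population and 0 higher, beside the background above of 6.59% and 3.39%. These were AHCTF1, which starts pore assembly on chromatin, at -0.33 (SE 0.12), TPR of the nuclear basket at -0.44 (SE 0.17), MCM3AP of mRNA export at -0.25 (SE 0.11), and RANBP1 at -0.75 (SE 0.34), with limma adjusted p-values of 0.423 to 0.476.

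Their levels also spanned a wide range. The highest was 1 of the 3 rows of BANF1, from the lamina list, with 935 ± 299 FPKM (SD, n = 29). RANGRF had 287 ± 150 and NUTF2, the importer of Ran, 275 ± 147 FPKM (SD, n = 29), whereas RANGAP1, which triggers the hydrolysis of GTP by Ran, had 0.119 ± 0.174 FPKM. Ran itself stood on 6 rows, of which the highest had 8.35 ± 4.16 FPKM. HIKESHI, the carrier of heat shock proteins, had 153 ± 75.1, RAE1, a partner of NUP98, 80.7 ± 44.0, RANBP2 1.79 ± 0.73 and CSE1L, the exporter of importin alpha, 6.02 ± 2.93 FPKM.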

How the data were processed

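Oocyte mRNA was enriched with oligo(dT) and sequenced in 29 samples. Per the study's methods, uniquely mapped reads without duplicates were given to Cufflinks with the Ensembl goat annotation. The genome build is not given in the sources used here, so no coordinates are given. The deposited values are FPKM per gene, without counts. One further column bears the name of an HSO sample 2, which no label used here has, and it was not analysed here, so HSO has 4 samples. No 2 samples held identical values. All 46 symbols were found in the RefSeq goat gene table.

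Tests were run here with limma 3.58.1 in R 4.3.3 (moderated tests with an intensity trend) on log2(FPKM + 1). Genes above 0.5 FPKM in at least 4 samples of each fit were used, since FPKM are not counts, and p-values were adjusted by Benjamini-Hochberg over all genes tested. A fold change on this scale understates the change of low genes. The script was tested on simulated data. Each fertility comparison used its own groups, and class, population and interaction used all samples. Alternatives were a pseudocount of 0.1 or 0.5, no filter, array weights, a limit of 1 FPKM, quantile normalization, size factors by the median of ratios, 1 fit over all samples, the replicate number as a block, and leaving out each sample. All genes of the set may be named with their levels. Values in every sample are given for KPNA2, KPNA7, KPNB1, XPO1, NUP98 and NUP62, and for up to 6 genes per fertility comparison, or up to 4 per test over all samples, with the smallest unadjusted p under 0.05. For NUP35 and NUP37 they are given because of their high levels, a choice made after seeing the values. The genes, lists and tests were chosen with earlier results of these data known.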

Additional observations from a re-analysis of the deposited data

Results flagged for a closer look

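Samples far from the rest of their group, by Dixon's criterion on FPKM, were found in 5 of 84 groups of 4 or 5 samples. Each of them was the highest of its group. The 14 gene rows examined were partly chosen by their results in these data. Chance gives about 1 in 20 for normally distributed values, a rate that was not checked for FPKM. NUP85 was at 47.7 FPKM in HLO sample 4, where the others of HLO were at 15.2 to 23.9 FPKM. NUP93 was at 47.7 FPKM in LSO sample 1, with the others at 14.04 to 19.1 FPKM. KPNA2 (b) was at 67.8 FPKM in LLO sample 4, with the others at 0.379 to 5.95 FPKM. IPO4 was at 7.75 FPKM in LSO sample 2, with the others at 1.05 to 2.01 FPKM. NUP98 was at 2.58 FPKM in HMO sample 5, with the others at 0.674 to 1.10 FPKM.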

How the results depend on the processing

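With 0 genes of the set at an adjusted p under 0.05 in every comparison, only array weights changed that count, to 1 in medium follicles (XPO5, adjusted p = 0.0483) and 3 over both populations (NUP98, NUP188 and TNPO1, all lower in the high fertility population), by limma, where 12.1% and 7.13% of all genes then passed. The cause was not tested. The number at an unadjusted p under 0.05 moved more, and so did the share of all genes. For HLO and LLO it was 1 as reported (4.14% of all genes), 2 without a filter (3.82%), 6 with array weights (16.5%, IPO4 not among them) and 3 in 1 fit over all samples (10.6%). For HMO and LMO it was 2 (8.67%), then 4 without a filter (8.13%), 16 with array weights (39.8%), and 1 with a limit of 1 FPKM (8.41%), in 1 fit over all samples (7.69%), and with the KPNA2 rows summed (8.65%). For HSO and LSO it was 0 (4.41%) and 1 with array weights (8.11%), over classes 0 (1.66%) and 2 with array weights (8.43%), and over both populations 3 (9.99%), then 1 with median-of-ratios factors (10.4%) and 22 with array weights (33.8%). For the interaction it was 2 (7.89%), then 1 with a limit of 1 FPKM (7.85%) and 4 with quantile normalization (9.95%). Leaving out single samples gave 0 to 5, 1 to 3 and 0 to 1 for large, medium and small follicles, 0 to 1 over classes, 0 to 3 over both populations and 1 to 3 for the interaction, and 0 at an adjusted p throughout. With the replicate block the numbers at an unadjusted p were 2, 3 and 1 for large, medium and small follicles, 0 over classes, 5 over both populations and 4 for the interaction, with 0 at an adjusted p, beside 8.21%, 16.4%, 9.41%, 2.86%, 15.1% and 14.5% of all genes at an unadjusted p. At an adjusted p 1.51% of all genes then passed in medium follicles and 0.722% in the interaction, beside 0.0715% and 0% without the block. The numbers do not pair the samples by the labels. Deviations of each sample from its group mean, over all genes tested, were correlated between samples of different groups. For same-numbered samples these correlations ran from -0.05 to 0.52, -0.41 to 0.65 and -0.48 to 0.71 in the 3 classes. Their median over all groups was 0.47, beside -0.18 for other numbers. Deviations sum to 0 within a group, so positive values at equal numbers push the others below 0, and these medians are not independent. Of 29 samples, 21 correlated best with their own number, a hint from the data and not the design. The members' median difference kept its sign for large and medium follicles and over both populations in all these fits, and in small follicles turned to 0.03 with median-of-ratios factors and was -0.24 to 0.16 with single samples left out. FPKM without counts limit what can be said of the many genes under 1 FPKM.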

Other observations

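Samples carry a replicate number in their titles that the labels do not explain. The summed FPKM of the 49 gene rows had a median of 1757 in the samples numbered 1 and 2333 in those numbered 5, and of 964 and 618 in those numbered 2 and 3, with 1372 in those numbered 4. Of the 34 genes above 0.5 FPKM in at least 4 samples, 27 had higher medians in numbers 1 and 5 than in 2 and 3, where 56.3% of all 9692 genes did. NUP85 and NUP50 had lower medians, where 11.6% of all genes did, with NUP85 at 15.4 and 16.2 FPKM in numbers 1 and 5 and 23.9 and 25.3 FPKM in numbers 2 and 3. NUP35 had medians of 426 and 584 FPKM in numbers 1 and 5 and of 52.2 and 59.4 FPKM in numbers 2 and 3. This pattern was noticed in the values, and it was not tested.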
